A study of Mus musculus with 2 samples.

Results

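The genes described here encode the protein subunits of the cytosolic ribosome. They were chosen by name: every protein-coding gene on chromosomes 1 to 19 of the GENCODE annotation of the mouse genome build mm10 whose symbol is Rpl or Rps followed by a number, with Rplp0, Rplp1, Rplp2 and Rpsa added and the Rps6k kinases left out. The rule found 88 of 20807 genes. Of these, 73 encode ribosomal proteins proper, 43 of the large and 30 of the small subunit. The other 15 are not counted as proper: they are paralogs, some of which can take the place of a ribosomal protein in the ribosome, retrocopies annotated as coding, or, for Rps19bp1, a protein that binds a ribosomal protein. The rule uses names only. Ribosomal protein genes on the X chromosome, and Fau and Rack1, which have other names, lie outside the rule.

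Open chromatin was mapped by DNase-seq, in which the enzyme DNase I cuts DNA that is free of nucleosomes, in tissue labelled as a layer of hippocampus. The mice were B6CASTF1/J, the first-generation cross of C57BL/6J and CAST/EiJ, 25 days old and labelled male. There is 1 group, with no treatment and 2 libraries, biological replicates 1 and 2. Both carry the same donor entry in the labels, which do not say that they came from separate animals. No condition was compared, and the members are not replicates of anything, so all differences from other genes are described without a test. One allele of each autosomal gene comes from CAST/EiJ, while mm10 is C57BL/6J sequence; the part of such differences in the values was not tested. In a whole tissue, a promoter open in few cells and one weakly open in many cannot be told apart.

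The libraries held 93545 and 79144 peaks and 223251 and 170016 footprints, in replicate 1 and replicate 2. The male label of replicate 2 did not match its sex-linked peaks: Xist, the RNA that silences an X chromosome, had 4 peaks there and 0 in replicate 1, while Ddx3y, on the Y chromosome, had 2 peaks in replicate 1 and 0 in replicate 2. Uty, also on the Y, had peaks in both, with highest values of 0.678 and 0.0774. The 2 libraries thus differ in their sex-linked peaks though both are labelled male, and every SD between them (n = 2) spans this difference. The second library is called replicate 2 by its label below. Every value is given for each library, and all members are autosomal. Promoter peaks in both libraries were present at 5 of 5 marker genes of neurons, 2 of 2 of CA1 and 2 of 2 of CA3 pyramidal cells, 2 of 2 of dentate granule cells, 2 of 3 of astrocytes, 1 of 3 of oligodendrocytes, 0 of 3 of microglia and 0 of 2 of endothelial cells. The liver marker Alb had none in either library, and the erythroid gene Hbb-bs had low values of 0.311 and 0.348.

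Each ribosome holds 1 copy of most of its proteins, so the genes for them must be expressed in step in every cell. They are short genes scattered over the genome, with strong promoters that start transcription at a narrow place. Their mRNAs typically begin with a C and a stretch of pyrimidines, the 5′ terminal oligopyrimidine (TOP) tract, through which the mTOR pathway sets their translation. In neurons they serve protein synthesis in the cell body and in dendrites. The 73 members proper lie on 18 of the 19 autosomes searched, 14 of them on chromosome 7.

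The sequences that follow show motif sites and pyrimidine runs at some of these promoters. They were chosen as stated with each set and do not stand for the typical member. All are from GRCm38, the same build as mm10, written 5′ to 3′ on the strand of the gene. The TSS is the annotated transcription start site of the principal transcript, and a footprint is a short stretch inside open DNA that the authors called as protected from cutting. The first 4 are the members with the most ETS, YY1, GC-box, TATA, CCAAT or CRE sites in footprints in both libraries; other motifs were not counted for this choice. Capitals mark those sites: CCAAT boxes (bound by NF-Y) and a TATA box in Rplp0, a cyclic AMP response element (CRE) and a GC box in Rpl27a, 2 GC boxes in Rpl31, and a GC box and a TATA box in Rps2.
Rplp0: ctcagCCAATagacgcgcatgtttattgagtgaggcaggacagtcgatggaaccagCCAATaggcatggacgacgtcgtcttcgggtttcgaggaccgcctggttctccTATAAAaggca
Rpl27a: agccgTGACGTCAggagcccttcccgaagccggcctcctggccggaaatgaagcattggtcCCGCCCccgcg
Rpl31: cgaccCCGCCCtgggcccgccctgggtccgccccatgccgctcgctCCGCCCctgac
Rps2: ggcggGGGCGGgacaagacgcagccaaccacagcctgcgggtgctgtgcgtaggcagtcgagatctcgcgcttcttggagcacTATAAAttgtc
They lie at chr5:115559375-115559494 (Rplp0, plus strand), chr7:109519093-109519164 (Rpl27a, plus strand), chr1:39367728-39367784 (Rpl31, plus strand) and chr17:24719997-24720090 (Rps2, plus strand). The Rpl31 and Rps2 stretches lie upstream of the TSS, and those of Rplp0 and Rpl27a reach into annotated exon 1. In Rpl31 the window searched held 4 GC boxes, and the 2 in lower case were not in a footprint in both libraries.

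A second set holds the TATA boxes that lay in a footprint in both libraries, each in a window of 30 bases with the box in capitals, on either strand. They are shown because 5 of the 9 such sites at members lay in a footprint in both libraries.
Rpl3: ccatcacttggcTTTATAtagcctgcactg
Rplp0: gcctggttctccTATAAAaggcacacgcgg
Rps2: ttcttggagcacTATAAAttgtcccttccg
Rps20: atgcgcacgtgcTTTATAagcgcccggcgc
Rps28: gtcagagccgacTATAAAaggcatcccctg
Their positions are chr15:80083366-80083395 (Rpl3, minus strand), chr5:115559472-115559501 (Rplp0, plus strand), chr17:24720068-24720097 (Rps2, plus strand), chr4:3835613-3835642 (Rps20, minus strand) and chr17:33824508-33824537 (Rps28, minus strand). The box of Rps2 is 27 bases upstream of the annotated TSS. The other 4 are 20 to 40 bases downstream of it, by the annotation in exon 1.

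A further set holds the palindrome CTCGCGAG, in capitals in windows of 28 bases. It is the core of a sequence bound by BANP, a factor of CpG-rich promoters, and stands here because 12.3% of the members proper hold it.
Rpl26: ctccgagactCTCGCGAGatctcgcggc
Rps28: cgcgtgcggtCTCGCGAGagcgaaagtg
Rpl10a: acgggcaactCTCGCGAGaacgcgggct
Rps6: gccggctgttCTCGCGAGaacttagagc
Rpl4: aaagataattCTCGCGAGagttgtgacg
Rpl27a: cgcctgctacCTCGCGAGacttcgtgag
These windows are chr11:68901531-68901558 (Rpl26), chr17:33824545-33824572 (Rps28), chr17:28328525-28328552 (Rpl10a), chr4:86857400-86857427 (Rps6), chr9:64173123-64173150 (Rpl4) and chr7:109519163-109519190 (Rpl27a). Counted from the TSS, with upstream positions negative, the site of Rpl4 is at -238 and the other 5 printed here lie from -38 to 30.

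A last set holds the 5 longest pyrimidine runs at an annotated TSS, apart from that of Rps2, with the run in capitals.
Rpl27a: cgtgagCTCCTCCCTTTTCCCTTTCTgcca
Rpl7: gcgccaCCTTTCTCTCTTCTTTTCCggctg
Rpl34: cccgccCCTTCCTTTTCCTCTTCCggggac
Rps24: agcggtCCTCTTTTCCTCCTCTCCagctcc
Rpl32: ccgccgCCTCTTCCTTCTTCCTCggcgctg
Counted from a C within 5 bases of the start, the runs hold 20, 19, 18, 18 and 17 bases in this order; in Rpl34 and Rps24 the pyrimidines go on further upstream, in lower case. By this count the run of Rps2 holds 17 bases. The windows lie at chr7:109519185-109519214 (Rpl27a), chr1:16104384-16104413 (Rpl7), chr3:130730329-130730358 (Rpl34), chr14:24490711-24490740 (Rps24) and chr6:115808727-115808756 (Rpl32).

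All 73 ribosomal proteins proper had a promoter peak in both libraries, and their peaks were higher than those of most open promoters. A promoter peak is one that overlaps the stretch reaching 1 kb to either side of any annotated TSS of the gene, and its value is the authors' signal at the highest such peak. Counting the 15 other names, 78 of 88 members had one in both libraries, beside 63.9% of all autosomal protein-coding genes. The same number, 78, was found in the authors' shorter and stricter peak list, beside 58.4% of all genes. No member had a peak in 1 library only.

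The median promoter value of the members proper was 3.30 in replicate 1 and 2.91 in replicate 2, a mean of 3.10 ± 0.28 (SD, n = 2). The 13222 other genes that had one in each library are called open genes here, and for them the medians were 2.25 and 2.14, a mean of 2.20 ± 0.08 (SD, n = 2). The members' median was thus the higher one in each library, by more than the SD between libraries. Ranked by mean value among all open promoters, the median member proper stood at percentile 78.7. Of the 73, 66 were above the 50th percentile, 46 above the 75th and 18 above the 90th, and 0 were below the 25th.

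**Figure D1:**
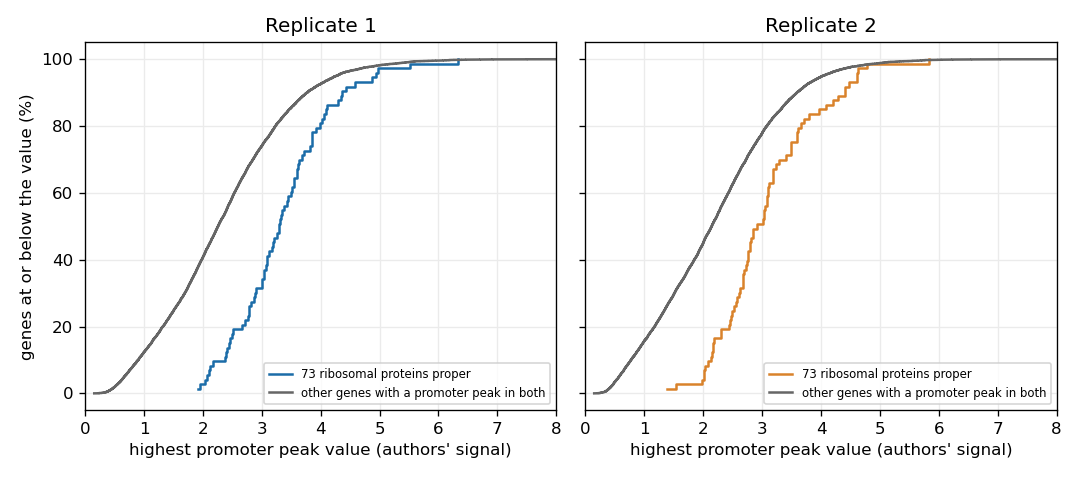
Cumulative share of genes (y axis, percent) at or below each promoter value (x axis, the authors' signal), 1 panel per library; coloured lines are the 73 ribosomal proteins proper and grey lines the 13222 other open genes. The coloured line lies to the right, with medians of 3.30 and 2.91 for the members and 2.25 and 2.14 for the others in replicates 1 and 2, and meets the grey line only at the highest values.

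High as a group, the members were not the extreme of the genome. Their mean values ran from 1.75 to 5.40, while the highest open promoter of any gene reached 10.4. Large and small subunit genes had nearly the same medians, 3.31 and 2.91 for the large subunit and 3.27 and 2.93 for the small one. Within a library the members proper differed from each other by less than other open genes did: the middle 80% of values lay between 2.38 and 4.36 in replicate 1, against 0.904 and 3.77 for other open genes, and between 2.13 and 4.38 in replicate 2, against 0.774 and 3.59.

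Rplp0, the protein of the ribosomal stalk that recruits elongation factors, had the highest mean, with 6.34 in replicate 1 and 4.47 in replicate 2 (5.40 ± 1.32, SD, n = 2). Rps3a1, a small subunit protein near the mRNA exit, followed with 4.94 and 5.84. The ranges of these 2 genes overlap, so that their order is not settled. Rpl21 had 5.52 and 4.60, and Rpl7a had 4.97 and 4.78. The values of these 4 were between percentile 98.6 and 99.3 of open promoters. The other stalk genes were lower: Rplp1 had 3.07 and 2.62, and Rplp2 had 4.58 and 2.80. Rplp1 and Rplp2 form dimers that bind Rplp0.

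Others of the 10 highest members follow. Rpl18 had 4.35 and 4.21, from a peak 2654 and 2584 bases downstream of its principal TSS, in the window of another annotated start. Rpl9 had 4.11 and 4.61, and Rps20 had 4.06 and 4.29. Rps12 had 4.88 and 3.60, and Rpl37 had 3.55 and 4.63. The last pair changes order between the libraries.

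The lowest members proper were Rpl6, Rpl4, Rpl38 and Rpl11. Rpl6 had 2.12 in replicate 1 and 1.39 in replicate 2. Rpl4, whose protein lines the tunnel through which the new peptide leaves, had 2.10 and 1.53. Rpl38 had 1.95 and 2.03, and Rpl11 had 1.91 and 2.09. In each library all 4 were below the members' median, and their percentiles among open promoters ran from 34.2 to 42.0.

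Some members with a known role are given here for it. Rpl5 and Rpl11 carry the 5S ribosomal RNA into the large subunit and, when assembly fails, bind the p53 regulator Mdm2. Rpl5 had 4.42 and 3.62 where Rpl11 had 1.91 and 2.09, and the ranges do not overlap. Among the small subunit genes mutated in Diamond-Blackfan anaemia, Rps19 had 3.38 and 3.65 and Rps26 had 2.04 and 1.99, again without overlap. Rps6, the classical target of S6 kinase, had 3.42 and 3.09. Rps27a, which encodes ubiquitin fused to a ribosomal protein, had 3.50 and 3.80. Rpsa, also known as the laminin receptor, had 2.39 and 2.48. Rps3, at the mRNA entry of the small subunit, had 3.67 and 2.75.

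**Figure D2:**
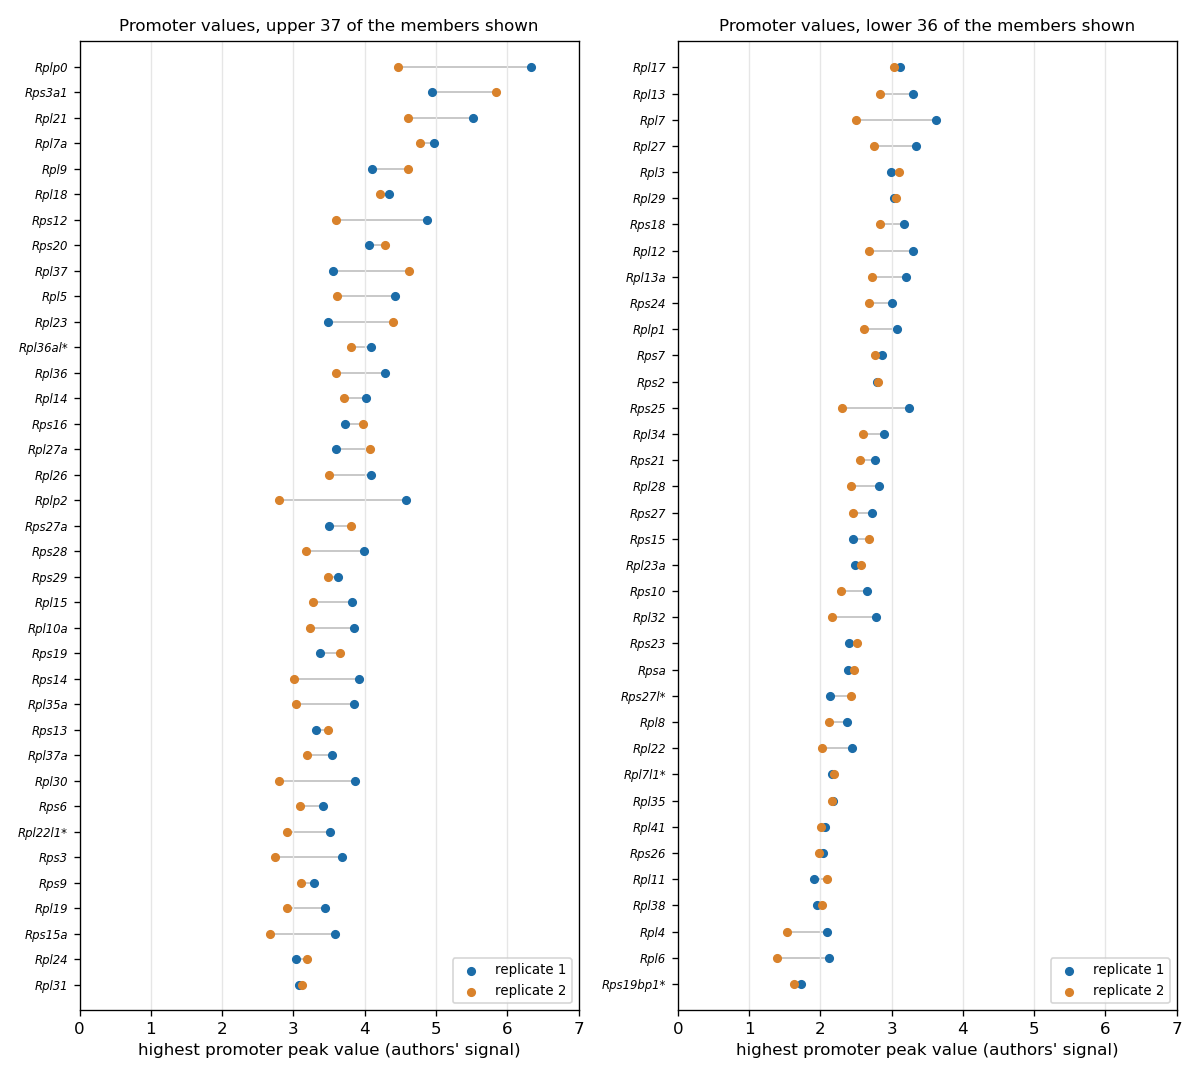
Promoter value (x axis, the authors' signal) of 73 of the 78 members with a promoter peak in both libraries, sorted by mean value over 2 panels; points are the libraries, grey lines join them, and asterisks mark genes that are not ribosomal proteins proper. Rplp0 and Rps3a1 lead, and Rpl6 and Rps19bp1 are lowest.

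The libraries ranked the members alike. Across the 73 genes the log2 values of replicates 1 and 2 had a Pearson correlation of 0.82 and a Spearman correlation of 0.81, against 0.94 and 0.93 over other open genes, which span a wider range; genes share their library and are not independent. All 73 were within 2-fold between libraries. The highest peaks of the libraries overlapped at 71 of the 73; at Rpl3 and Rps18 the values came from different peaks, and at Rpl3 that of replicate 2 lay at -7875 bases from the principal TSS. Replicate 1 had the higher value at 49 of the 73, and at 52 of the 78 open members, beside 65.6% of all open promoters. The median log2 difference, replicate 1 minus replicate 2, was 0.15 for the members proper and 0.11 for other open genes.

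The largest difference was at Rplp2, with 4.58 and 2.80, a log2 difference of 0.71. Rpl6 came next at 0.61. In the other direction, Rpl37 was at -0.38, Rpl23, with 3.49 and 4.40, at -0.33, and Rps3a1 at -0.24. With 1 value per library, none of these can be set against a spread.

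Member promoters had high peaks but less DNA in peaks when the windows of all annotated starts were summed. Summed over all peaks that touch the windows of any annotated TSS, the median length was 460 and 400 bp for the members proper. For other open genes it was 620 and 512 bp. The median number of such peaks was 1 for the members and 2 for other open genes in each library, so the sum is not the width of 1 peak. Other open genes are also longer, with a median of 26469 bases against 3368, so the windows of their starts can overlap less. The part of gene length in these sums and peak counts was not tested. Mitochondrial ribosomal proteins, a list added after the data were seen, had 435.5 and 380 bp, with a median of 1 peak. A single peak in both libraries was found at 34 of 73 (46.6%), against 30.7% of other open genes. The length of DNA with an authors' FDR under 0.05 was counted in another window, 1 kb to either side of the principal TSS alone. It was 1039 and 922 bp for the members proper and 1030 and 930 bp for the others. Footprints were also equally many, with medians of 8 and 6 per promoter in both sets. Replicate 1 had more footprints in all, as given above.

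The members differed in their footprints. Rps14 had 18 in replicate 1 and 16 in replicate 2, Rpl7 had 18 and 15, Rps27a had 15 and 10, Rpl13a had 11 and 13, and Rpl18 had 14 and 10. At the other end, Rpl41, which encodes a very short peptide, had 2 and 3, and Rpl17 had 4 and 4. Across the 73 genes the value and the number of footprints had a Spearman correlation of 0.20 in replicate 1 and 0.05 in replicate 2. Rpl18 was among the highest in both, while Rps3a1 had 5 and 6 footprints and Rpl38, among the lowest in value, had 9 and 11. A gene with more annotated start sites has a longer window, and Rps14 has 10 of them and Rpl41 has 7.

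Peaks at the members lay further downstream of the annotated start than at other open genes, and footprints were denser on both sides of it. The TSS of the principal transcript lay inside a peak in both libraries at 50 of the 73, and at 55 of all 88 members, beside 38.5% of all genes and 60.2% of other open genes. Counting any annotated TSS, it was 64 of 73 (87.7%), against 77.2% of other open genes. The middle of the highest peak was a median of 71 and 39 bases downstream of the principal TSS, against 30 bases downstream and 3 bases upstream for other open genes. All these positions depend on the annotated start. At Rplp0, Rpl3, Rps20 and Rps28 even the footprinted TATA box lies 20 to 40 bases downstream of it. Whether the annotated start is the one used was not tested, nor its part in the shift. In the last 100 bases upstream of the start, footprints covered 18.4% and 17.7% of bases at members, against 13.9% and 14.1% at other open genes. In the first 100 bases downstream they covered 17.6% and 16.9% of bases at members, against 11.1% and 10.2% at other open genes. From 100 to 199 bases downstream it was 14.4% and 10.3%, against 8.43% and 5.38%. Between 200 and 101 bases upstream it was 9.95% and 8.58%, against 8.52% and 7.74%. Peaks covered 78.7% and 80.7% of the first 100 bases downstream at members, against 68.1% and 67.1%, and 39.5% and 45.0% between 200 and 101 bases upstream, against 50.5% and 49.4%.

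**Figure D3:**
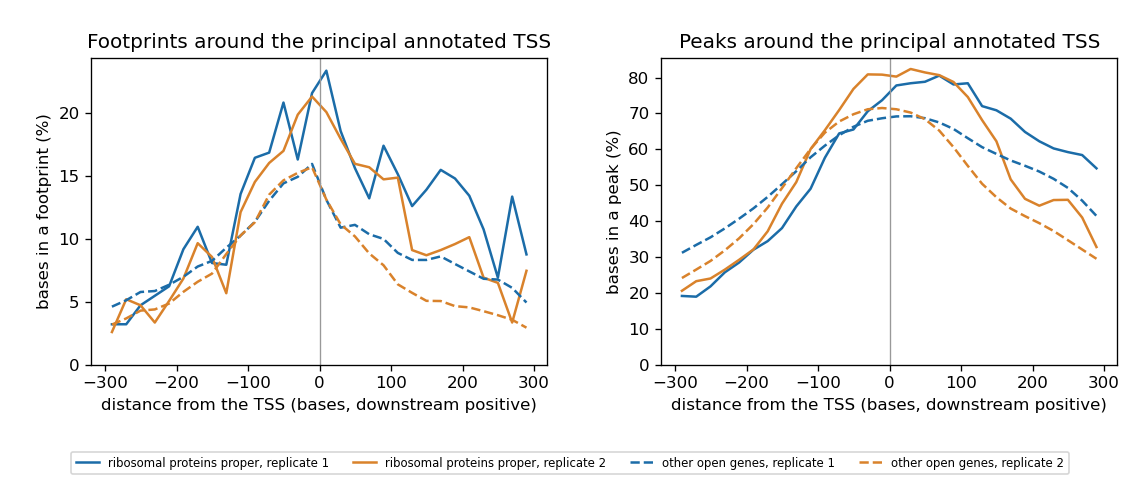
Share of bases in a footprint (left) and in a peak (right), in percent, against the distance in bases from the principal annotated TSS, in bins of 20 bases, for the 73 ribosomal proteins proper (solid) and the other open genes (dashed) in each library. From the start to 199 bases downstream the member curves lie above the dashed ones of the same library, with 17.6% and 16.9% against 11.1% and 10.2% in the first 100 bases, and below them for peaks from 200 to 101 bases upstream.

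The 10 motifs were searched on both strands in the 300 bases from 250 before to 50 after the principal TSS. A site counted as footprinted when its middle base lay in a footprint. DNase I cuts some sequences more readily than others, and its part in the footprints was not tested. The ETS core CCGGAAG, bound by GABP and other ETS factors that are known at ribosomal protein promoters, was present at 24 of 73 members proper (32.9%), against 16.3% of other open genes. The shorter CGGAAG, which lies inside it, was present at 60.3% against 29.1%. In a footprint were 6 of 31 sites in replicate 1 (19.4%, against 19.1% of sites at other open genes) and 5 of 31 in replicate 2 (16.1% against 20.6%). In both libraries it was 1 of 31 CCGGAAG sites (3.23%), that of Rps21, against 10.3%. Of the shorter CGGAAG sites, 24.3% and 18.9% were footprinted in replicates 1 and 2, against 17.5% and 17.9% at other open genes. In both libraries it was 7 of 74 CGGAAG sites (9.46%), against 8.80%. The YY1 site AAGATGGC was present at 5 members (6.85% against 4.31%). In both libraries 0 of 5 sites were footprinted, against 67 of 590 (11.4%) at other open genes.

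TATA boxes were few, though more common than at other open genes, and a larger share of them was footprinted. TATAAA was present at 8 members proper (11.0%), against 6.97% of other open genes, and the shorter TATAA at 32.9% against 13.2%. Of the 9 TATAAA sites, 6 were in a footprint in replicate 1 and 5 in replicate 2. The 5 in both (55.6%) are those of Rpl3, Rplp0, Rps2, Rps20 and Rps28, printed above. At other open genes 42 of 1037 sites (4.05%) were footprinted in both. The sites also differed in position, with a median offset from the TSS of 0 bases at members and -131 at other open genes. Within 50 bases of the TSS, a limit chosen after the data were seen, it was 5 of 7 sites at members (71.4%) and 38 of 347 at other open genes (11.0%). The count at the members is small, and the site of Rps14 and the upstream one of Rps2 were footprinted in neither library, while that of Rpl30 was in replicate 1 only.

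A pyrimidine run stood behind 6 of the 9 TATA boxes of the members, each of the 5 footprinted ones and 1 of the 4 others. Only 2 of these 4 lie within 50 bases of the TSS, 1 of them with a run. At other open genes a run stood behind 334 of 1037 TATAAA sites (32.2%). There the footprinted sites (13 of 42, 31.0%) and the others (321 of 995, 32.3%) were nearly alike. Runs at the TSS were common among the members in any case, as given below. Whether footprint and run go together was not tested. Searching from 20 to 40 bases downstream of the first base of the box, a C followed by at least 4 pyrimidines began 31 bases after it in Rplp0, 29 in Rpl3, 27 in Rps28, 25 in Rps20 and 23 in Rps2. The runs were 5, 6, 9, 12 and 20 bases long in this order, that of Rps2 counted here from its first C. At Rps20 the E box CACGTG, a site of MYC and USF, stands before the TATA box with 1 base between them and was footprinted in both libraries as well.

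The palindrome CTCGCGAG was present at 9 members proper (12.3%), among them those printed above and Rpl17, against 1.68% of other open genes. The shorter TCGCGA inside it was present at 17 (23.3%) against 4.82%. With a T before and an A after it, the longer form known for BANP, it stood at 7 members (9.59%) against 0.847%. The sites of Rpl17, Rpl26 and Rps28 lay in a footprint in both libraries, 3 of 9. At other open genes it was 31 of 234 sites (13.2%).

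GC boxes, GGGCGG, the site of SP1 and its relatives, were less common at members than at other open genes, at 35 of 73 (47.9%) against 63.3%. Of 57 sites, 13 were footprinted in both libraries (22.8%), against 15.1%. CCAAT was present at 30.1% against 37.7%. Only Rplp0 had such sites footprinted in both, 2 of 31 sites (6.45%), against 5.04% at other open genes. The CRE TGACGTCA was present at 5 members (6.85% against 3.42%), and those of Rpl27a and Rps9 were footprinted in both, 2 of 5 sites, against 55.6% of sites at other open genes. The NRF1 site CGCATGCG was present at Rpl10a and Rpl37a (2.74% against 3.56%). Both sites were footprinted in both libraries, as were 66.7% of such sites at other open genes. AP-1 sites, TGACTCA, were present at 3 members (4.11% against 3.12%), with 0 footprinted, where 0.473% of such sites at other open genes were footprinted in both.

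Over the whole window of 300 bases, footprints covered 13.7% and 12.5% of bases at the members proper and 10.5% and 10.01% at other open genes. Base composition differed as well: the median GC content of the window was 56.0% for the members and 61.0% for other open genes. Its part in the motif counts was not tested.

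Pyrimidine runs marked many of the starts. A C followed by at least 4 pyrimidines began within 20 bases of the principal TSS at 51 of 73 members proper (69.9%), against 48.2% of other open genes. With at least 8 pyrimidines it was 33 (45.2%) against 15.6%. Counting a run of at least 8 within 5 bases of any annotated TSS, a setting chosen after the data were seen, it was 46 (63.0%) against 17.3%; the median number of annotated start sites was 6 for the members and 5 for the others. The run of Rpl7 began 255 bases downstream of the principal TSS, at another annotated start, and those of Rps24 and Rpl32 began 1 and 3 bases upstream of it.

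**Figure D4:**
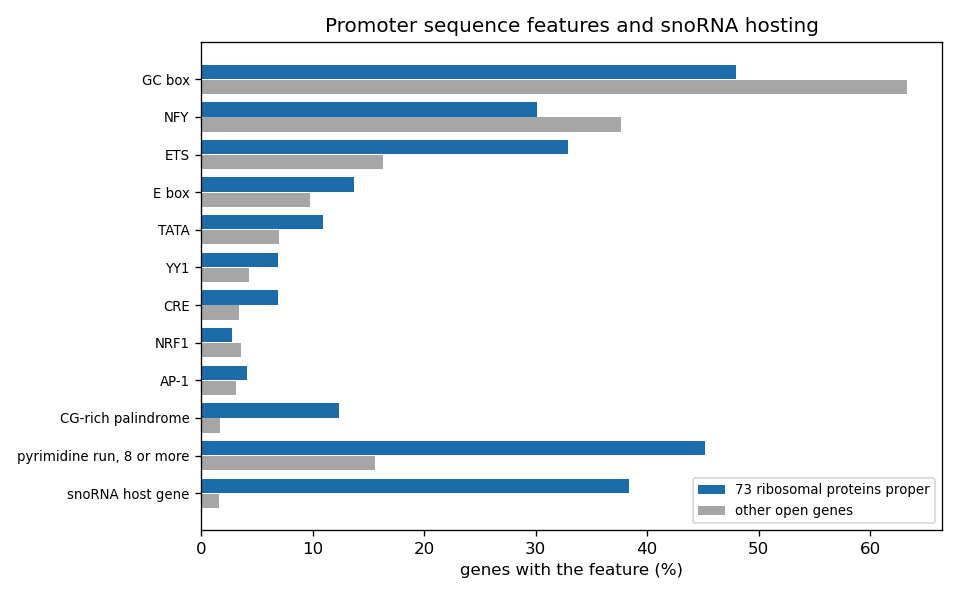
Percent of genes (x axis) with each promoter motif, with a pyrimidine run of at least 8 bases within 20 bases of the TSS, and with a small nucleolar RNA inside the gene, for the 73 ribosomal proteins proper (blue) and the other open genes (grey). ETS sites (32.9% against 16.3%), the CG-rich palindrome CTCGCGAG (12.3% against 1.68%), pyrimidine runs and small nucleolar RNAs are more common at the members, and GC boxes (47.9% against 63.3%) less common.

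Many of the genes carry further RNAs of the ribosome pathway. Small nucleolar RNAs (snoRNAs), which guide the modification of ribosomal RNA and are cut from introns, lay inside 28 of the 73 (38.4%), 56 in all, against 1.57% of other open genes. Rpl4 held 5, and Rpl13a held 4 (Snord32a, Snord33, Snord34 and Snord35a). Beyond exon 1, in the first 1 kb of the members proper, footprints covered 3.51% and 2.23% of intron bases and 1.75% and 0.749% of exon bases, against 1.89% and 1.19%, and 2.02% and 1.39%, at other open genes. The share of bases with an FDR under 0.05 was 61.3% and 52.4% in introns and 57.3% and 42.5% in later exons, against 46.8% and 40.8%, and 45.1% and 37.4%, at other open genes. From 300 to 1000 bases after the start, introns (50.1% and 38.7%) and later exons (54.5% and 38.7%) of the members were nearly alike. There footprints covered 1.12% and 0.685% of intron bases at members and 1.28% and 0.882% at other open genes, and 1.13% and 0.372% of later exon bases, against 1.86% and 1.32%. The higher footprint share of member introns was thus in the first 300 bases.

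A divergent coding gene started within 1 kb upstream at 8 of the 73 (11.0%), close to the 10.7% of other open genes. The closest was Ndufa7, of respiratory complex I, 10 bases from Rps28. Lias, which makes lipoic acid, was 53 bases from Rpl9, and Nkiras1, an inhibitor of NF-kappa-B signalling, 69 bases from Rpl15. The peak of such a promoter cannot be divided between the genes. Rps18, Rpl7a, Rpl35a, Rpl4 and Rpl12 are the other 5.

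The 15 other genes fell into 2 sets. Peaks in both libraries were found at 5 promoters: Rpl36al (4.08 and 3.80), Rpl22l1 (3.52 and 2.91), Rps27l (2.14 and 2.44), Rpl7l1 (2.17 and 2.20) and Rps19bp1 (1.72 and 1.64). Rpl22l1 and Rps27l are paralogs of Rpl22 and Rps27 and are widely expressed. At the first pair the paralog had the higher value, since Rpl22 had 2.44 and 2.02; at the second it was lower in replicate 1 and nearly equal in replicate 2, since Rps27 had 2.72 and 2.46. Rpl36al shares its promoter region with Mgat2, which starts 74 bases away.

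The other 10 had no promoter peak in either library: Rpl3l, Rpl10l, Rpl39l, Rps27rt, Rpl10-ps3, Rpl36-ps4, Rpl36a-ps1, Rpl9-ps1, Rpl9-ps6 and Rps12-ps3. None of them had a base with an FDR under 0.05 in the window. Rpl3l is the striated muscle paralog of Rpl3, and Rpl10l and Rpl39l are known from the testis. Of these 10, 7 have a single exon, as retrocopies do, while 0 of the 73 members proper do. Short reads in near-identical copies may map to more than 1 place, and the sources used here do not say how the authors treated such reads.

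Retrocopies annotated as pseudogenes were almost always without a peak, as were processed pseudogenes in general. Of 256 pseudogenes of any type with an Rpl or Rps name, 4 overlapped a peak in both libraries. Beside this, 1.08% of all 8924 genes of the type processed pseudogene did. They are Rpl19-ps3 (0.869 and 1.17), Rpl37rt (0.912 and 1.11), Rps4l (0.820 and 0.767) and Rps19-ps10 (0.346 and 0.309). Rpl19-ps3, Rpl37rt and Rps4l are of the type transcribed processed pseudogene, which the 8924 do not include, so the sets are not fully alike. Rpl19-ps3 and Rpl37rt are annotated over 19206 and 7346 bases, longer than a retrocopy, so that more sequence was searched. All 4 values were below the lowest member proper, and none of the 4 lay in the promoter window of a coding gene.

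Distal peaks were found near 36 of the 73 members proper in at least 1 library. A distal peak lies outside the windows of all coding genes and within 10 kb of the gene. A gene was counted when each library had at least 1, and these need not overlap, as at Rps15a. This held for 25 of the 73 members proper and for 29 of all 88, beside 50.6% of all genes. Of other open genes, 60.2% had one in both. None in either library was found at 37 of 73 (50.7%), against 35.6% of non-members and 25.1% of other open genes. The genes are short, with a median length of 3368 bases, against 17776 for non-members and 26469 for other open genes. Each count was therefore ranked among the 200 genes nearest in length. The median member proper stood at percentile 34.75, against 47.0 for non-members and 55.0 for other open genes, but 36 of the 73 were at or above 50. Large subunit genes had a median percentile of 30.75 and small subunit genes of 56.6. The 37 members proper without a distal peak are the 37 under percentile 50. The members' medians thus depend mostly on how many genes had none. That was 24 of 43 large subunit genes (55.8%) and 13 of 30 small subunit genes (43.3%).

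In all, 72 distal peaks in replicate 1 and 49 in replicate 2 belonged to members proper, and 39 in each overlapped a peak of the other library. Their values had medians of 0.671 and 0.960, where the median over all peaks of the libraries, promoter peaks included, was 0.657 and 0.651. The maxima of these distal peaks were 2.76 and 2.37. The shared ones alone had medians of 0.996 and 1.07. The highest was 5372 bases downstream of the Rpl12 start, at chr2:32966621-32967240 in replicate 1 (2.76) and chr2:32966721-32967220 in replicate 2 (2.37). Only 5 and 8 lay inside the body of the member gene itself.

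The counts of single genes depended on the library. Rpl31 had 11 distal peaks in replicate 1 and 0 in replicate 2; all 11 lay upstream of the gene and had values of 0.155 to 0.276, below the library's median peak of 0.657. Rps14 had 9 and 6, over an annotated gene of 31449 bases that is longer than that of most members. Rps10 had 4 and 5, Rpl3 had 4 and 2, and Rps23 had 3 and 3. At Rps23 all 3 overlapped between libraries, with values of 0.523 to 0.579 in replicate 1 and 0.612 to 0.709 in replicate 2. Rpl3 had a peak inside the annotated gene, at chr15:80088761-80088940, with 2.08 in replicate 1 and 1.87 in replicate 2.

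Other genes of the translation pathway had promoter peaks too. In each of 3 lists all genes had one in both libraries: 18 of 18 other ribosomal and TOP translation genes, 23 of 23 translation initiation factors and 24 of 24 ribosome assembly genes. The first list had medians of 3.44 and 3.11, the initiation factors 3.003 and 2.99, and the assembly factors 2.48 and 2.52, against the members' 3.30 and 2.91. For 78 mitochondrial ribosomal proteins, a list added after the data were seen, all had a peak there in both and the medians were 2.64 and 2.46. Fau had 3.58 and 3.99, and Rack1, a scaffold on the small subunit, had 3.21 and 2.62. Eef1a1, the elongation factor that brings transfer RNA to the ribosome, had 3.51 and 2.75, and its neuronal and muscle form Eef1a2 had 2.44 and 2.28. The lowest of the first list was Eif3h, with 1.10 and 1.75.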

How the data were processed

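DNase-seq of 2 libraries of 1 group was used, with samples grouped and numbered as in the labels. Per the file headers and the lists deposited with each library, narrow peaks, a shorter peak list, footprints and FDR runs were made by the authors on mm10 from each library's own alignments; no source used here names the callers or filters. Peak values are the authors' deposited signal, whose scaling and depth are unknown. The deposited p-value column is an FDR per run of bases, listed under 0.05; footprints were used by position only.

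Genes came from GENCODE M21 and sequence from RefSeq's GRCm38.p6. Overlaps of at least 1 bp were counted with Python 3.11.15 and numpy 2.4.6 (pysam 0.24.0, scipy 1.17.1, matplotlib 3.10.9), in code tested on simulated data. No test was made over a list of genes. Named genes were those highest and lowest in value, footprints, distal peaks and log2 difference, all without a peak, all other names and those with most footprinted sites; some of these are not reported here by name; further genes were chosen for their role or after their values were seen. The members and lists were chosen with earlier results of these data known. Alternatives were peak list, window, overlap, start site, consensus, extension, member set and leaving out each library.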

Additional observations from a re-analysis of the deposited data

How the results depend on the processing

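Of 61 alternative values for 12 results, 49 stayed near the main value and 12 moved. The number of members with a promoter peak in both libraries (78) was 78 in each library alone, the median promoter value ran from 2.87 to 3.30, its percentile from 74.8 to 81.9, the median footprints from 6 to 8 and the peak offset from 36.5 to 66 bases. The 29 members with a distal peak in both libraries became 18 with the shorter peak list, 5 in the gene body alone and 76 within 50 kb, and 33 or 38 in 1 library alone. The ETS count of 26 over all 88 members rose to 49 with the shorter consensus. The YY1 count of 6 became 10 with the shorter consensus and 12 in a window of 250 bases on each side, which was added after the data were seen. The share of ETS and YY1 sites in a footprint, 21.2% (20% or 22.5% in 1 library alone), was 30% when any base counted, 25.0% from the most upstream start site and 18.1% for the ribosomal proteins proper. The 60 members with a pyrimidine run became 37 with at least 8 pyrimidines. The 4 open pseudogenes became 2 with the shorter list and 2 for parents among the ribosomal proteins proper, and 4 or 5 in 1 library alone. No paired analysis was possible because there is 1 group. Depth is unknown, so that a promoter without a peak is one without a listed peak, not one shown to be closed.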
